A study of Homo sapiens with 18 samples.

Results

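The 10 genes described here encode inflammatory cytokines and chemokines, and they were chosen by symbol: CXCL2, CXCL3, CXCL8, IL6, IL1A, IL1B, CSF2, LIF, CCL2 and CCL5. They are 10 of the 58815 genes in a table of RNA-seq read counts from 18 libraries. The cells were LM2, BrM3 and BoM, which are derivatives of the triple-negative breast cancer line MDA-MB-231 that colonize the lung, brain and bone of mice. The brain derivative is named BrM in the sample titles and BrM2 in the cell line label, and the study's methods call it BrM3. Each line carried a hairpin induced by doxycycline, either a control (shCtrl) or a hairpin against WDR5 (shWDR5), and all 6 groups, controls included, received 1 μg/mL doxycycline for 3 days. Each group had 3 libraries from cells harvested at different passages, grown as a monolayer with no leukocytes or stroma, so the p-values measure the spread between passages of a line. A single WDR5 hairpin was sequenced, and a line is 1 cell derivative with its own history of selection, so effects of the hairpin other than on WDR5, and features of a derivative other than its organ, cannot be told apart from the knockdown and the organ.

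Tumor cells secrete these proteins and so reach neutrophils, monocytes, bone cells and their own receptors. CXCL2, CXCL3 and CXCL8 are ELR+ chemokines that draw neutrophils through CXCR2, while CCL2 draws monocytes through CCR2 and CCL5 draws T cells and monocytes. IL-1α and IL-1β are apical signals that switch on NF-κB in the cells they reach. IL-6 and LIF signal through gp130 and STAT3, and GM-CSF, the product of CSF2, drives myeloid cells. In many cell types NF-κB, AP-1 and C/EBP factors induce these genes together, and their mRNAs are short-lived. WDR5 is a scaffold of the KMT2 complexes that methylate histone H3 at lysine 4.

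The promoters of the neutrophil chemokines and of IL6 are shown because they hold the letters read by the inducible factors named above. RefSeq promoters (GRCh38.p14) were matched for 7 of the 10 genes; CCL2, CCL5 and LIF were not among them. The 160 bases before the RefSeq start of transcription are printed 5′ to 3′ on the gene's strand, and capitals mark the motifs found. GENCODE 44 places the start of longer transcripts of CXCL3, CXCL8 and IL6 upstream of the RefSeq start.
CXCL2, chr4:74099196-74099355, minus strand: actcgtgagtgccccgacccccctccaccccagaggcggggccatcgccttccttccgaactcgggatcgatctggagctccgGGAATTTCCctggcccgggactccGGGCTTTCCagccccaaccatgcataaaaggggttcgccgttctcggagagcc
CXCL3, chr4:74038690-74038849, minus strand: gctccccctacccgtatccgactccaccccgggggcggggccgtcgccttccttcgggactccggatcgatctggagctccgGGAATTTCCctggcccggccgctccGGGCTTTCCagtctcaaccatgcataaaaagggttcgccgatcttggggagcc
CXCL8, chr4:73740409-73740568, plus strand: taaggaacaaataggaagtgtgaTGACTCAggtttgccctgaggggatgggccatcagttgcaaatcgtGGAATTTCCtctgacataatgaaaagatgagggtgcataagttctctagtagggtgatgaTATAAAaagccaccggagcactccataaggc
IL6, chr7:22727040-22727199, plus strand: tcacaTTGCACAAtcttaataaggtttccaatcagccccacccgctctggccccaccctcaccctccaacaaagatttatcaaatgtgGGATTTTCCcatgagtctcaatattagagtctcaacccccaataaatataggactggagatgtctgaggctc

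The following motifs were searched on both strands of 250 bases before the start, and none of those listed overlapped another. The letters GGNNTTTCC, an NF-κB-like word, were found in CXCL2 at bases -77 and -53, in CXCL3 at -78 and -53, in CXCL8 at -91 and in IL6 at -72. Of all 35116 RefSeq promoters, 5.48% held this word. The AP-1-like word TGANTCA was found in CXCL8 at -137 and in IL1A, and in 6.57% of all promoters. The C/EBP-like word TTGCNNAA was found in IL6 at -155, in CXCL2 at -188 and in IL1B at -215, and in 9.05% of all promoters. The TATA word TATAAA stood in CXCL8 at -31 and in IL1A, and in 10.7% of all promoters. The printed windows of CXCL2 and CXCL3 were identical at 134 of 161 aligned columns (83.2%). The NF-κB-like word was not among the letters of the IL1A, IL1B and CSF2 windows.

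The chemokine pair also shared mRNA sequence. CXCL2 (chr4:74097040-74099196) and CXCL3 (chr4:74036589-74038807) lie on the minus strand near CXCL8 (chr4:73740519-73743716, plus strand), by GENCODE 44 on GRCh38. Of the 50-base stretches of CXCL2 transcripts, 13.4% also occurred in CXCL3 or CXCL1, and 6.01% of those of CXCL3 occurred in CXCL2 or CXCL1, so their counts are uncertain to that extent. CCL5 (chr17:35871491-35880793) shared 15.6% with other genes. The other members shared none: IL6 lies at chr7:22725884-22732002, IL1A at chr2:112773925-112784493, IL1B at chr2:112829751-112836816, CSF2 at chr5:132073789-132076170, LIF at chr22:30240453-30246759 and CCL2 at chr17:34255274-34257208.

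The libraries held 17485841 to 119667013 counts. WDR5 averaged 125 ± 11.1 CPM (TMM-scaled counts relative to 1000000 counts of tested genes; SD, n = 3) in LM2 shCtrl cells and 23.1 ± 2.25 in LM2 shWDR5 cells, 86.1 ± 6.95 and 21.9 ± 1.42 in BrM3, and 89.4 ± 1.71 and 19.0 ± 4.40 in BoM, so that every library labelled shWDR5 lay below the controls of its line. Of the markers of mesenchymal-like breast cancer cells, all 6 were expressed, with VIM at 1494 to 2231 CPM. That list also holds epithelial keratins: KRT8 (194 to 447 CPM), KRT18 (263 to 501) and KRT19 (24.2 to 170). Of the markers of other breast epithelium, ESR1, PGR and CDH1 stayed below 1 CPM, while ERBB2 was at 41.4 to 83.3 CPM, EPCAM at 4.39 to 10.1 and GATA3 at 4.74 to 9.24. Of the leukocyte markers, CD3E, ITGAM, AIF1 and LYZ were at 0 in at least 1 library and never above 0.253 CPM. Higher values were found for CD14 (0.241 to 4.61 CPM), CSF1R and PTPRC, and the summed leukocyte list ranged from 2.07 to 6.36 CPM.

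Expression was first compared across the lines within the control cells. The level per exon length (CPM per kb of the union of annotated exons), used here to compare genes, ordered the members differently in the 3 lines. The union takes in the exons of every annotated transcript, so the order between genes is approximate. In LM2 shCtrl cells IL1B (25.1 CPM per kb) and LIF (23.7) led with overlapping ranges, followed by CXCL8 (8.52). In BrM3 LIF led with 14.3, and CXCL8 (3.74) and IL1B (3.70) followed at levels whose libraries overlapped. In BoM CCL2 led with 38.6, followed by LIF (15.9) and CXCL8 (6.86). IL6 stood at 2.34 in LM2, 0.292 in BrM3 and 1.86 in BoM. CCL5 was the lowest of the 10 in all 3 lines, at 0.0740 to 0.209, and CXCL3 did not exceed 0.571. LIF and CXCL8 thus ranked among the first 3 in each line, while CCL2 was ninth in LM2 and first in BoM.

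**Figure D1:**
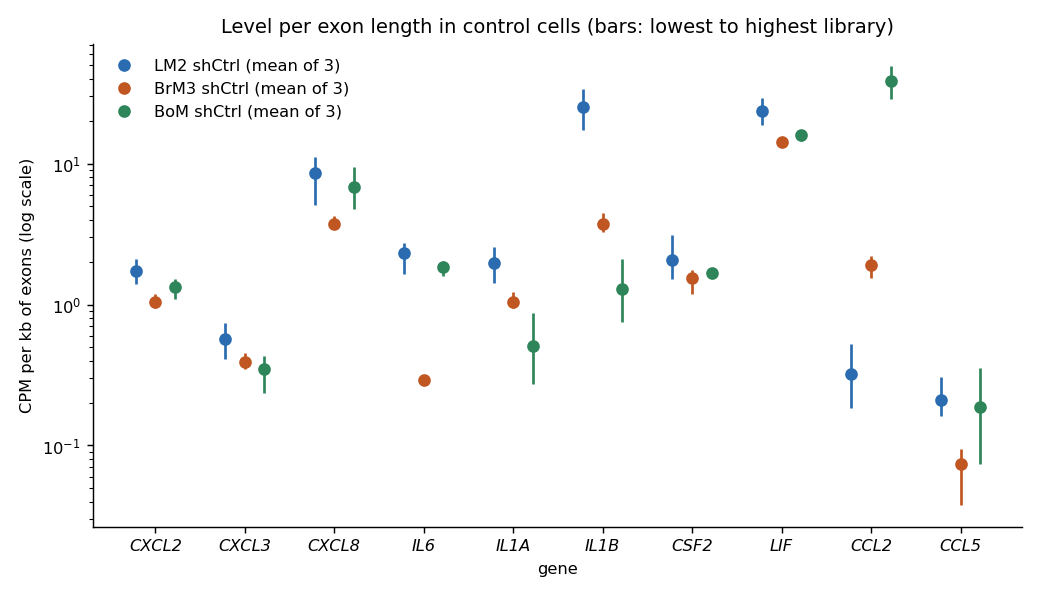
Level of each gene per kb of exon length (log axis) in the control cells of each line; points are means of 3 libraries and bars run from the lowest to the highest library. CCL2 spans from 0.323 in LM2 to 38.6 in BoM, IL1B from 25.1 in LM2 to 1.29 in BoM, and LIF stays between 14.3 and 23.7.

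Differences between lines were tested in all genes that passed the expression filter (12160). The filter asked for a normalized count above 139.697 in at least 1 library, and 7 of the 10 members passed. CXCL3, CSF2 and CCL5 did not, and their tests are taken from a fit with the edgeR filter filterByExpr (18428 genes), which all 10 members passed. CXCL2 passed through LM2 shWDR5 replicate 3 alone and IL1A through LM2 shCtrl libraries alone. IL6 passed through LM2 and BoM libraries only, and CCL2 through BrM3 shCtrl and BoM libraries only. These members entered the test only through groups in which they were high. Counts and medians over the 7, also those between lines, therefore cannot be read as values of the whole set. Tests of IL1A, IL6 and CCL2 between control cells are likewise not independent of this filter. A gene is called at a Benjamini-Hochberg adjusted p under 0.05 by the edgeR quasi-likelihood test.

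Between BrM3 and LM2 control cells, 6 of the 7 were called, 5 lower and 1 higher in BrM3, where 47.6% of all genes were called (24.2% higher and 23.4% lower). Between BoM and LM2, 4 were called, 3 lower and 1 higher in BoM, against 51.8% of all genes (26.0% higher and 25.8% lower). Between BoM and BrM3, 4 were called, 3 higher and 1 lower in BoM, against 37.6% of all genes (17.8% higher and 19.8% lower). The median log2 difference of the 7 was -0.87, -0.38 and 0.36 in the 3 comparisons, and that of all genes was within 0.02 of 0. Over all 10 members, in the fit with the wider filter, the medians were -0.80, -0.36 and 0.25. These comparisons share control libraries. The wider filter called none of CXCL3, CSF2 and CCL5 between control cells, where it called 41.4%, 44.7% and 30.5% of all genes.

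CCL2, the monocyte chemoattractant, differed more than any other tested member between BoM and each of the other lines, whereas IL6 and IL1B differed slightly more than CCL2 between BrM3 and LM2. The LM2 shCtrl libraries held 1.02, 0.356 and 0.497 CPM. The BrM3 shCtrl libraries held 2.96, 3.88 and 4.29 CPM. The BoM shCtrl libraries held 55.5, 73.3 and 95.5 CPM. The 3 lines did not overlap, and the order LM2, BrM3, BoM held in every library. CCL2 was 135-fold higher in BoM than in LM2 (log2 7.08 ± 0.46 SE, adjusted p = 1.5e-09, edgeR), the difference of rank 33 by size among 12160 genes. It was 20.2-fold higher in BoM than in BrM3 (adjusted p = 1.6e-07) and 6.71-fold higher in BrM3 than in LM2 (adjusted p = 8.0e-05).

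IL1B ran in the reverse order. LM2 shCtrl libraries held 73.3, 51.9 and 101 CPM, BrM3 libraries 13.3, 9.89 and 10.2 CPM, and BoM libraries 6.33, 3.00 and 2.27 CPM. Again no library of a line reached the range of another. The level was 18.9-fold lower in BoM than in LM2 (log2 -4.24 ± 0.36 SE, adjusted p = 4.2e-08, edgeR), 6.78-fold lower in BrM3 than in LM2 (adjusted p = 2.6e-06) and 2.80-fold lower in BoM than in BrM3 (adjusted p = 0.0028). IL1A, its neighbour on chromosome 2, fell from 3.95 ± 1.13 CPM in LM2 to 1.03 ± 0.634 in BoM (SD, n = 3 each), a 3.59-fold difference (adjusted p = 9.0e-04). IL1A passed the expression filter only through LM2 shCtrl libraries, the high group here, so that p-value is not independent of the filter. Its differences of BrM3 from LM2 (log2 -0.87 ± 0.36) and from BoM did not pass the test (adjusted p = 0.057 and 0.069). The first passed in 3 of 18 fits that left out 1 library (without LM2 shCtrl replicate 2, BrM3 shWDR5 replicate 1 or BoM shCtrl replicate 1, lowest adjusted p = 0.033), and the second without the last 2 of these (adjusted p = 0.042 and 0.013). With all libraries, the first passed with a GC correction (adjusted p = 0.013) and with no filter (0.0011). The second passed in DESeq2 (adjusted p = 0.047), with the GC correction (0.028) and with no filter (8.5e-04).

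IL6 separated BrM3 from the other two lines. LM2 shCtrl libraries held 11.4, 7.15 and 11.8 CPM, BoM libraries 8.77, 6.92 and 8.36 CPM, and BrM3 libraries 1.29, 1.21 and 1.29 CPM. LM2 and BoM overlapped (log2 -0.33 ± 0.24, adjusted p = 0.25, edgeR), and BrM3 lay far below both. The level in BrM3 was 7.97-fold lower than in LM2 (adjusted p = 8.1e-08), and that in BoM was 6.32-fold higher than in BrM3 (adjusted p = 8.5e-07).

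Of the neutrophil chemokines, CXCL8 averaged 22.1 ± 8.07 CPM in LM2, 9.69 ± 1.07 in BrM3 and 17.8 ± 6.30 in BoM (SD, n = 3 each). It was 2.28-fold lower in BrM3 than in LM2 (adjusted p = 0.0071, edgeR). Its 1.83-fold higher level in BoM than in BrM3 stood at the threshold (adjusted p = 0.048). The call was lost in 9 of 18 fits without 1 library, most widely without BoM shCtrl replicate 1 (log2 0.56, adjusted p = 0.24). The LM2 and BoM ranges overlapped. CXCL2 was 1.67-fold lower in BrM3 than in LM2 (adjusted p = 0.044), and that call was also lost in 9 of 18 fits, most widely without LM2 shCtrl replicate 3 (log2 -0.54, adjusted p = 0.19). The other fits that lost the CXCL8 call left out LM2 shWDR5 replicate 1, any BrM3 shCtrl library, BrM3 shWDR5 replicate 2 or 3, BoM shCtrl replicate 3 or BoM shWDR5 replicate 3 (adjusted p of at most 0.12). Without a shWDR5 library, which is outside this comparison, the log2 difference stayed at 0.88 in these fits. The others that lost the CXCL2 call left out LM2 shCtrl replicate 1, any BrM3 shCtrl library, BrM3 shWDR5 replicate 2 or 3, BoM shCtrl replicate 3 or BoM shWDR5 replicate 2 (adjusted p of at most 0.12).

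LIF, a gp130 cytokine, was well expressed in every group. It averaged 91.8 ± 19.8 CPM in LM2 shCtrl cells, 55.3 ± 2.17 in BrM3 and 61.7 ± 5.49 in BoM (SD, n = 3 each). Every BrM3 and BoM library lay below the lowest LM2 library (72.6 CPM), while BrM3 and BoM overlapped. The level was 1.66-fold lower in BrM3 (adjusted p = 2.6e-04, edgeR) and 1.49-fold lower in BoM (adjusted p = 0.0019) than in LM2. CSF2 averaged 1.62 ± 0.718, 1.22 ± 0.248 and 1.33 ± 0.104 CPM in the 3 lines, and CXCL3 1.27 ± 0.361, 0.866 ± 0.119 and 0.780 ± 0.230 CPM. CCL5 had few reads, 11 to 27 in the LM2 control libraries, 2 to 6 in BrM3 and 2 to 19 in BoM. Its BrM3 range lay below that of LM2, and BoM overlapped both.

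**Figure D2:**
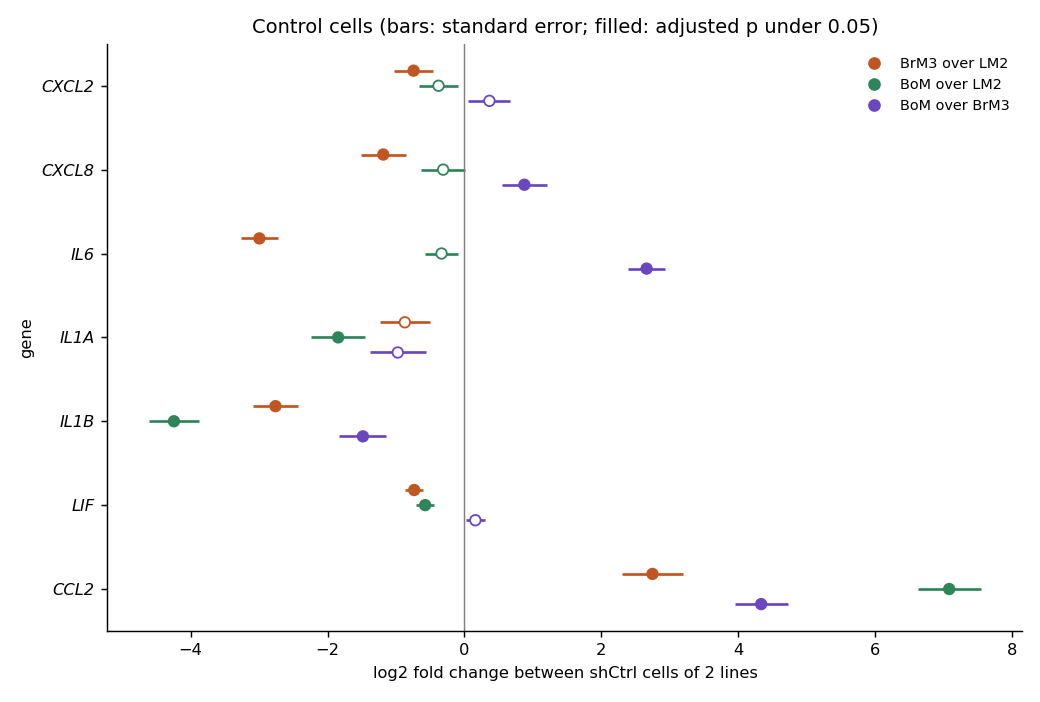
Log2 fold change between shCtrl cells of 2 lines (x axis) for the 7 members that passed the filter (y axis); bars are standard errors and filled points have an adjusted p under 0.05. CCL2 lies to the right in all 3 comparisons, IL1B to the left in all 3, and IL6 is filled only in the comparisons with BrM3.

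WDR5 knockdown was next compared with control within each line, the question being whether loss of WDR5 changes these transcripts. The mean level was lower after knockdown in all 3 lines for 6 of the 10 members (CXCL8, IL6, IL1A, IL1B, CSF2 and CCL5), in 2 lines for CXCL2, LIF and CCL2, and in 1 line for CXCL3. Few of these differences passed the test. In LM2, 1 of the 7 tested members was called (IL6, lower), where 6.29% of all genes were called and 4.80% were called lower. In BrM3 none of the 7 was called by edgeR or by DESeq2, with 2 at an unadjusted p under 0.05, where 10.9% of all genes were called and 7.96% were called lower. In BoM none was called by either tool and none had an unadjusted p under 0.05, where 16.2% of all genes were called and 10.8% were called lower. With same-numbered BoM libraries treated as pairs (replicate block), 1 was called (IL1B, lower), against 26.4% of all genes called and 15.0% called lower. In the knockdown averaged over the 3 lines, 2 were called (IL6 and IL1B, both lower), against 35.5% of all genes called and 19.9% called lower, a share near the background. The median log2 fold change of the 7 was -0.51 in LM2, -0.60 in BrM3, -0.14 in BoM and -0.46 in the average, and the median of all genes was within 0.02 of 0. Over all 10 members, in the fit with the wider filter, the medians were -0.33, -0.49, -0.23 and -0.37.

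Counted by overlap, the shWDR5 libraries of BrM3 all lay below the shCtrl libraries for 6 members (CXCL2, IL6, IL1B, CSF2, LIF and CCL2), 5 of them among the 7 tested. The same held for 19.7% of all tested genes in BrM3. In LM2 it held for IL6 alone, against 14.6% of all genes, and in BoM for CXCL2 alone, against 17.3%. No member had all shWDR5 libraries above the shCtrl libraries in any line.

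**Figure D3:**
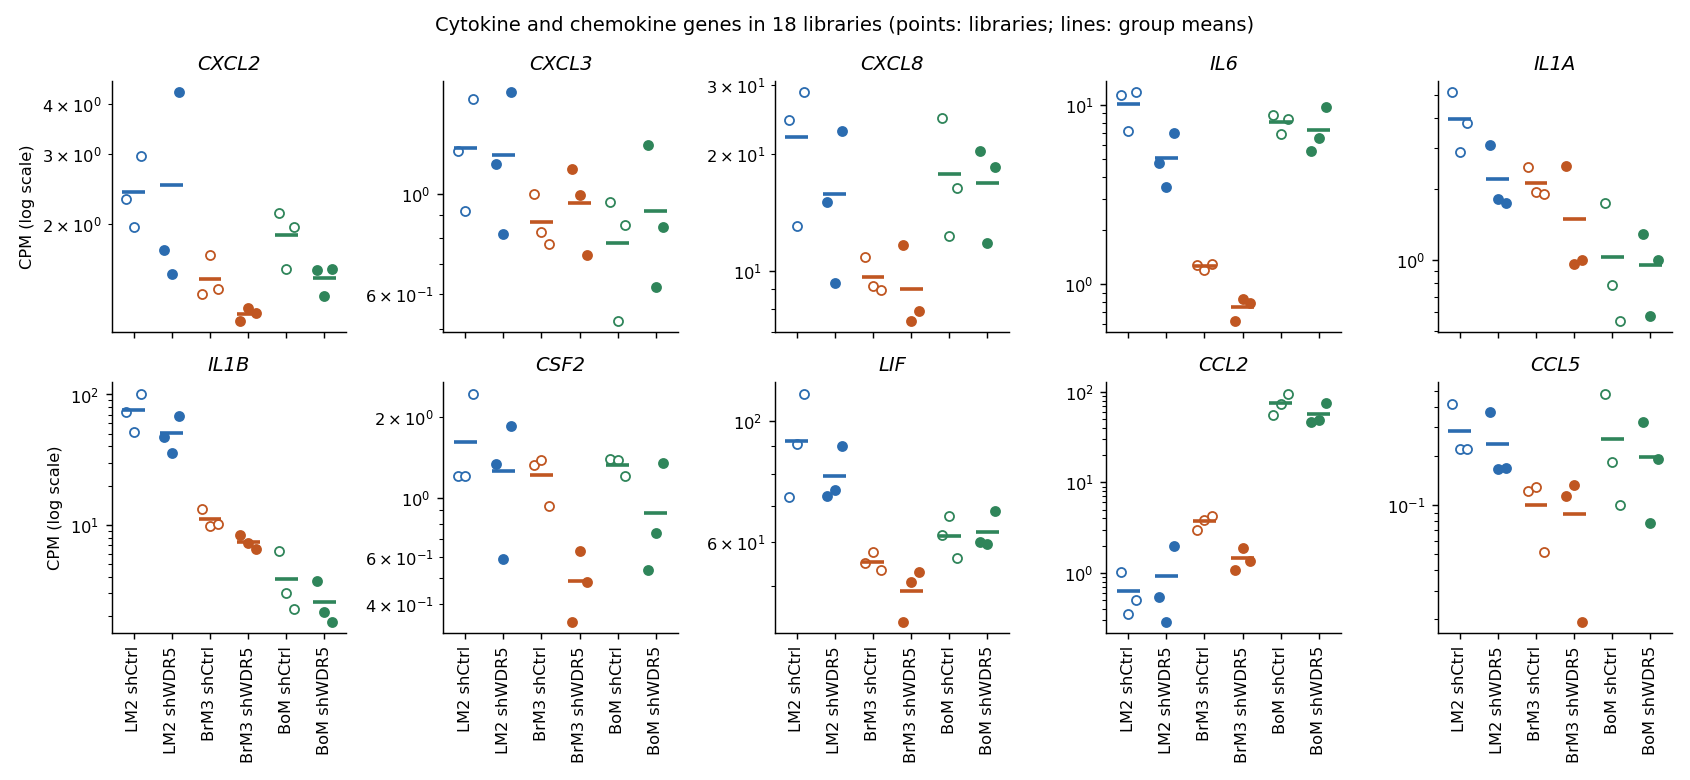
CPM of each gene (log axis, scaled per panel) in the 6 groups; open points are shCtrl libraries, filled points are shWDR5 libraries and lines are group means of 3. In BrM3 the filled points lie below all open points for 6 of the 10 genes, and the lines differ far more than the hairpins for CCL2 and IL1B.

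IL6 fell most clearly in LM2. The shCtrl libraries held 11.4, 7.15 and 11.8 CPM and the shWDR5 libraries 4.74, 3.48 and 7.03 CPM. The highest shWDR5 library lay just below the lowest control. IL6 was 2.04-fold lower (log2 -1.03 ± 0.24 SE, adjusted p = 0.017, edgeR), and the call was lost without LM2 shCtrl replicate 3 (log2 -0.89, adjusted p = 0.084), shWDR5 replicate 1 (-0.997, adjusted p = 0.079) or shWDR5 replicate 2 (-0.80, adjusted p = 0.11), and with LM2 fitted alone (adjusted p = 0.12). In BrM3 the shWDR5 libraries held 0.628, 0.831 and 0.791 CPM, from 11 to 41 reads each. These lay below the BrM3 controls, a log2 fold change of -0.72 ± 0.32 that did not pass the test (adjusted p = 0.18) but did with BrM3 fitted alone (log2 -0.70, adjusted p = 0.034). In BoM the shWDR5 libraries held 5.53, 6.59 and 9.78 CPM. They spanned the control range, with a log2 fold change of -0.14 ± 0.24 (adjusted p = 0.74). Averaged over the lines, IL6 was 1.55-fold lower (log2 -0.63 ± 0.16, adjusted p = 0.0049), a call that held in all 18 fits without 1 library. The changes in BoM and LM2 differed by 0.89 ± 0.34 on the log2 scale (unadjusted p = 0.019, adjusted p = 0.79), so a difference between the lines was not shown.

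IL1B was lower after knockdown by a similar estimate in each line, with wide errors. In LM2 the shWDR5 libraries held 46.9, 35.8 and 68.9 CPM, in BrM3 8.45, 7.28 and 6.56 CPM, and in BoM 3.73, 2.17 and 1.81 CPM. In LM2 and BoM these overlapped the controls, and in BrM3 they lay below them. The log2 fold changes were -0.59 ± 0.31, -0.60 ± 0.33 and -0.60 ± 0.38, none of which passed the test (adjusted p = 0.31, 0.28 and 0.30, edgeR). Leaving out 1 library moved the LM2 estimate between -0.87 and -0.31, the BrM3 estimate between -0.69 and -0.45, and the BoM estimate between -1.004 and -0.03, the last without BoM shCtrl replicate 1. The BrM3 change passed with that line fitted alone (adjusted p = 0.048). In BoM shWDR5 was lower in 3 of 3 same-numbered pairs, and the fit with the replicate block called IL1B (log2 -0.57, adjusted p = 0.0049). No label says that a number marks a shared passage, so that call rests on an assumed pairing. The average was 1.51-fold lower (log2 -0.60 ± 0.20, adjusted p = 0.026). This call was lost in 6 of 18 fits, without BoM shCtrl replicate 1 (log2 -0.40, adjusted p = 0.098), LM2 shCtrl replicate 3, LM2 shWDR5 replicate 2, BrM3 shCtrl replicate 1, BoM shWDR5 replicate 2 or BoM shWDR5 replicate 3 (adjusted p of 0.050 to 0.054 in the last 5). The IL1A change was -0.80 ± 0.37 on the log2 scale in LM2 cells, -0.63 ± 0.41 in BrM3 cells, -0.14 ± 0.45 in BoM cells and -0.52 ± 0.24 in the average (adjusted p = 0.095). Without BrM3 shWDR5 replicate 1, which at 2.51 CPM stood above the other 2 libraries of its group (0.964 and 1.00), the average passed the test (log2 -0.68, adjusted p = 0.023).

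CCL2 was not called in any line, with lower estimates in BrM3 and BoM and a higher one in LM2 that rested on 1 library. In BrM3 the shWDR5 libraries held 1.08, 1.90 and 1.35 CPM against 2.96, 3.88 and 4.29 in the controls. The groups did not overlap, and the 2.52-fold lower level (log2 -1.33 ± 0.42, edgeR) just missed the threshold (adjusted p = 0.052). It passed in 4 of 18 fits, without LM2 shCtrl replicate 1 (adjusted p = 0.040), LM2 shWDR5 replicate 2 (0.032), LM2 shWDR5 replicate 3 (0.013) or BoM shWDR5 replicate 3 (0.048), none of which is a BrM3 library. With all libraries it passed with BrM3 fitted alone (adjusted p = 0.012), upper-quartile scaling (0.044), a GC correction (0.027) and no filter (7.2e-09), but not in DESeq2. In BoM, where CCL2 was most abundant, the shWDR5 libraries held 46.6, 48.7 and 74.6 CPM and overlapped the controls (log2 -0.40 ± 0.33, adjusted p = 0.44). In LM2 the shWDR5 libraries held 0.546, 0.288 and 1.97 CPM. Replicate 3, with 35 reads, stood above all 3 controls, and the log2 fold change of 0.34 ± 0.56 turned to -0.47 without it. The average was -0.46 ± 0.26 (adjusted p = 0.17), and without that library it was -0.73 (adjusted p = 0.012). The change in BrM3 minus that in LM2 was -1.67 ± 0.70 (unadjusted p = 0.029, adjusted p = 1.00), and it passed only with no filter (adjusted p = 0.0014).

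The neutrophil chemokines did not pass the test in any line. CXCL8 shCtrl libraries of LM2 held 24.4, 13.1 and 28.7 CPM and shWDR5 libraries 15.0, 9.34 and 22.8 CPM. Every BrM3 and BoM range overlapped its control as well. The log2 fold changes were -0.51 ± 0.33 in LM2, -0.12 ± 0.34 in BrM3, -0.07 ± 0.33 in BoM and -0.23 ± 0.19 in the average (adjusted p = 0.36, edgeR). CXCL2 had -0.07 ± 0.29, -0.28 ± 0.32 and -0.35 ± 0.32, and -0.24 ± 0.18 in the average (adjusted p = 0.32). As for CCL2, LM2 shWDR5 replicate 3 was the highest library for CXCL2, at 4.28 CPM against 1.71 and 1.50 in its group, and without it the average was -0.41 (adjusted p = 0.011). CXCL2 had passed the expression filter through that library alone, so the value without it cannot be read as a call. CXCL3, in the fit with the wider filter, had -0.14 ± 0.30, 0.13 ± 0.33 and 0.30 ± 0.34, and 0.10 ± 0.19 in the average (adjusted p = 0.73). With the counts of CXCL1, CXCL2 and CXCL3 summed as 1 feature, the average was -0.21 (adjusted p = 0.47).

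CSF2, which encodes GM-CSF, had few reads, 6 to 301 a library. In BrM3 the shCtrl libraries held 1.33, 1.39 and 0.931 CPM and the shWDR5 libraries 0.342, 0.632 and 0.482 CPM, from 6 to 25 reads. These did not overlap, and the log2 fold change was -1.23 ± 0.43 (adjusted p = 0.083, edgeR with filterByExpr, where 8.65% of genes were called in BrM3). It passed in DESeq2 (adjusted p = 0.044), with BrM3 fitted alone (adjusted p = 0.020) and without LM2 shWDR5 replicate 2 (adjusted p = 0.048). In LM2 and BoM the groups overlapped, with log2 fold changes of -0.53 ± 0.36 and -0.63 ± 0.41 (adjusted p = 0.48 and 0.34, where 4.68% and 12.6% of genes were called). The average was 1.74-fold lower (log2 -0.80 ± 0.23, adjusted p = 0.013, where 31.9% of genes were called), and it passed in all 18 fits without 1 library.

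LIF was not called in any line. Its log2 fold change was -0.21 ± 0.13 in LM2 cells, -0.17 ± 0.14 in BrM3 cells, 0.02 ± 0.14 in BoM cells and -0.12 ± 0.08 in the average (adjusted p = 0.24, edgeR). CCL5 had 1 to 15 reads in the shWDR5 libraries. In the fit with the wider filter its log2 fold changes were -0.09 ± 0.53, -0.43 ± 0.83 and -0.39 ± 0.60, and -0.30 ± 0.38 in the average (adjusted p = 0.59, edgeR).

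**Figure D4:**
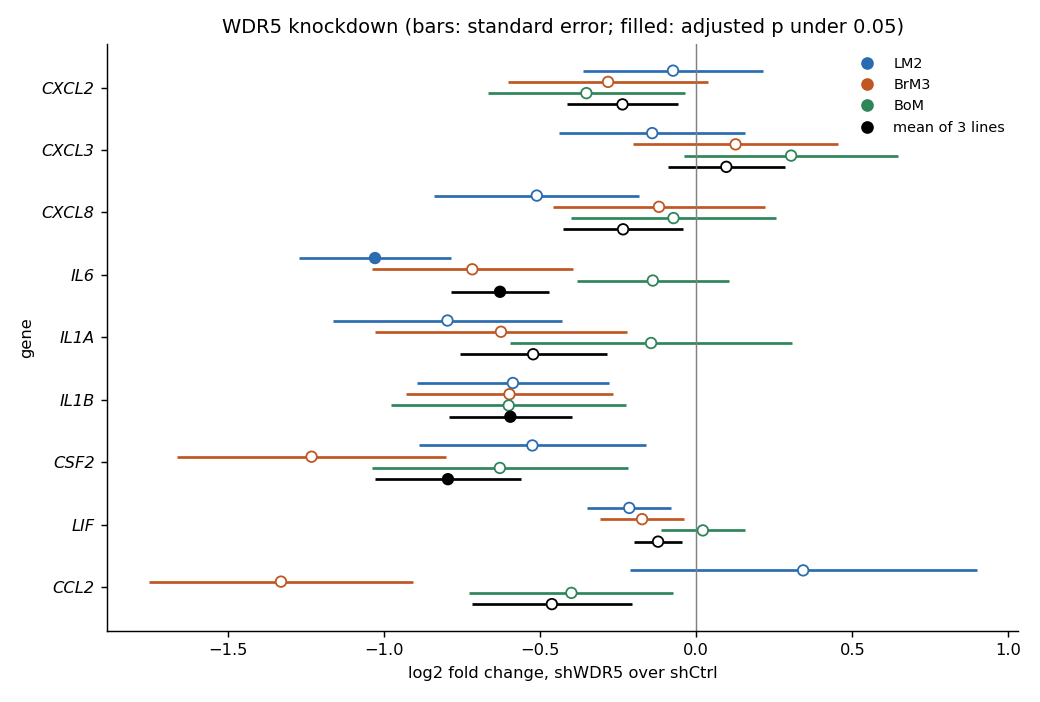
Log2 fold change of shWDR5 over shCtrl (x axis) in each line and averaged over the 3 lines for 9 members (y axis; CCL5 is left out for its few reads); bars are standard errors and filled points have an adjusted p under 0.05. Filled points are IL6 in LM2 and the averages of IL6, IL1B and CSF2.

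No member was called for a difference of the knockdown change between 2 lines, where 0.00822% of all genes were called for BrM3 minus LM2, 0.00% for BoM minus LM2 and 0.00822% for BoM minus BrM3. DESeq2 was run for the same comparisons and called none of the members either. At an unadjusted p under 0.05 stood CCL2 for BrM3 minus LM2 and IL6 for BoM minus LM2, and none for BoM minus BrM3.

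The order of the libraries within a group was compared with that of CXCL8. The same agreement was not counted over all genes, so it cannot be read as particular to the members. The highest library was the same for CXCL3 and IL1B as for CXCL8 in 6 of 6 groups, for IL1A in 4, for IL6, CXCL2 and CSF2 in 3, for LIF and CCL5 in 2 and for CCL2 in 1. The lowest library was the same as for CXCL8 in 5 groups for CXCL3 and in 4 for CXCL2 and IL1A. It was the same in 3 for IL6, CSF2 and CCL5 and in 2 for IL1B, LIF and CCL2. The lowest CXCL8 library was replicate 2 in 5 of the 6 groups. The ratio of the highest to the lowest library within a group reached 2.45 for CXCL8, 2.80 for IL1B, 3.16 for IL1A and 6.85 for CCL2, against 1.55 for LIF.

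Across the 18 libraries, the genes whose log2 CPM was most like the mean standardized profile of the 7 tested members were RBM47 (Pearson r = 0.90), SPTBN5 (0.89), IFI27 (0.89), PLEKHG5 (0.89) and TMEM135 (0.89). The members themselves correlated with this profile by 0.90 for CXCL2, 0.89 for CXCL8, 0.86 for LIF, 0.82 for IL6, 0.60 for IL1B, 0.50 for IL1A and -0.11 for CCL2. These values are descriptive: the libraries fall into 3 lines and differ in depth, and the members are part of the profile. CCL2 was the member that did not follow it.

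Other secreted cytokines and chemokines were read from a list of 28 genes, of which 11 passed the filter. In the averaged knockdown 4 fell and none rose, with a median log2 fold change of -0.28 (19.9% of all genes fell). CCL28, a mucosal chemokine, went from 4.14 ± 0.460 to 2.33 ± 0.171 CPM in BrM3 (SD, n = 3 each), and its average was -0.65 ± 0.09 (adjusted p = 3.8e-05, edgeR). IL11, the gp130 cytokine known for bone metastasis of these cells, went from 209 ± 19.3 to 144 ± 18.6 CPM in BoM and from 203 ± 20.5 to 149.8 ± 26.2 CPM in LM2. Its average was -0.50 ± 0.08 (adjusted p = 1.8e-04). CTF1, another gp130 ligand (-0.34 ± 0.10, adjusted p = 0.015), and CSF1, the macrophage growth factor (-0.28 ± 0.09, adjusted p = 0.018), fell by less.

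Of the receptors of the members, 8 of 17 passed the filter, and in the averaged knockdown 1 rose and 1 fell, where 15.6% of all genes rose and 19.9% fell. IL1R1, the signaling receptor of IL-1, fell (-0.76 ± 0.12 in the average, adjusted p = 1.6e-04, edgeR), with 5.06 ± 0.689 CPM in BoM shCtrl and 2.59 ± 0.904 in BoM shWDR5 cells. IL6ST, which encodes gp130, rose by 0.33 ± 0.11 (adjusted p = 0.024). The other 6 did not pass. Of the IL-1 inhibitors and processing genes, 6 of 8 were tested: CASP1, the protease that matures IL-1β, fell (-0.36 ± 0.09, adjusted p = 0.0055), and CAPN2, a calpain subunit, rose (0.15 ± 0.04, adjusted p = 0.0042).

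Among the factors upstream, all 22 NF-κB subunits, inhibitors and kinases were tested, and in the averaged knockdown 3 rose and 1 fell, with a median log2 fold change of 0.01 (15.6% of all genes rose and 19.9% fell). NFKB1, which encodes the p105/p50 subunit, rose by 0.20 ± 0.05 (adjusted p = 0.0042, edgeR), MAP3K14, the kinase NIK, by 0.25 ± 0.06 (adjusted p = 0.0056) and NFKBIZ, an atypical IκB, by 0.29 ± 0.10 (adjusted p = 0.035), while BCL3 fell (-0.40 ± 0.14, adjusted p = 0.032). Of 11 tested C/EBP and JAK-STAT genes, 3 rose and 1 fell, against 35.5% of all genes called in the average. STAT5A, a transducer of GM-CSF signaling, fell in all 3 lines (-0.40 ± 0.10 in LM2, -0.55 ± 0.10 in BrM3 and -1.11 ± 0.11 in BoM, adjusted p = 0.026, 0.0026 and 4.5e-06). JAK2 rose by 0.50 ± 0.09 (adjusted p = 4.4e-04) and CEBPG by 0.20 ± 0.05 (adjusted p = 0.0057) in the average. Of 10 regulators of cytokine mRNA stability, ZFP36L2, which promotes decay of AU-rich mRNAs, rose by 0.16 ± 0.06 (adjusted p = 0.042) and the others did not pass.

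Some markers of other cells also changed in the averaged knockdown, where 15.6% of all genes rose and 19.9% fell. The summed fibroblast and endothelial list stayed between 1.57 and 5.52 CPM, and PECAM1, its only tested gene, rose by 0.41 ± 0.12 on the log2 scale (adjusted p = 0.012, edgeR) and by 0.70 ± 0.19 in LM2 (adjusted p = 0.033). CD14, the only tested leukocyte marker, fell by 1.13 ± 0.27 (adjusted p = 0.0039) and in BrM3 by 1.78 ± 0.45 (adjusted p = 0.017). The summed leukocyte list was 3.78 to 4.14 CPM in BrM3 shCtrl and 2.36 to 2.80 CPM in BrM3 shWDR5 cells, which did not overlap. In the list of mesenchymal-like breast cancer cells 3 of 6 rose and 2 fell. Among them VIM and EGFR rose by 0.20 ± 0.06 and 0.20 ± 0.07 (adjusted p = 0.012 and 0.030), and the keratins KRT19 and KRT8 fell (-0.54 ± 0.12 and -0.25 ± 0.09, adjusted p = 0.0019 and 0.035). EPCAM fell in the list of other breast epithelium (-0.60 ± 0.07, adjusted p = 8.0e-06). The part of these shifts in the cytokine values was not tested.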

How the data were processed

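RNA from LM2, BrM3 and BoM cells with shCtrl or shWDR5 (3 libraries per group, 18 in all) was sequenced as stranded paired-end mRNA libraries. The authors aligned the reads with STAR (version 2.7.0) to hg38 and deposited raw read counts per GENCODE gene; the strand setting of the counting is not given in the sources used here. Spike-in RNA was added by the authors, but the table analysed here holds 0 spike-in rows. A deposited table of the authors' own log2 fold changes and p-values from DESeq2 was not used. Samples were grouped by title; source labels that name another line were not followed, and count columns marked "ad" were taken as shCtrl because those marked "wd" match shWDR5.

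Counts were scaled by TMM and tested with the edgeR quasi-likelihood test (4.0.16, R 4.3.3) in 1 fit of 6 groups (12 residual degrees of freedom), with Benjamini-Hochberg adjustment over the 12160 genes above the threshold of highest Jaccard index (0.970) between replicates. CPM are relative to the counts of these genes. No libraries of a group agreed within sampling noise (chi-square per gene of 5.14 to 90.6). Same-numbered BoM libraries deviated together (correlations of 0.56, 0.32 and 0.14), so the blocked fit is given for BoM where it changes a call. In LM2 and BrM3 1 pair each did not deviate together. No label says that a number marks a shared passage. BoM shWDR5 replicate 3 correlated better with shCtrl replicate 2 (0.21), so the pairing is not established in BoM either. The fit was tested on simulated data. Alternatives were DESeq2 (1.42.0), upper-quartile scaling, a replicate block, each line alone, filterByExpr, no filter, leaving out each library, summed CXCL1, CXCL2 and CXCL3 and, added after seeing the data, a GC correction and the use of filterByExpr for the 3 members that failed the filter.

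The members and gene lists were chosen with earlier results of these data known. Named besides the members and WDR5 are, per list, up to 4 called genes of smallest p in the averaged knockdown, and the 5 genes most like the members' mean profile. Some genes of these lists are not reported here.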

Additional observations from a re-analysis of the deposited data

How the results depend on the processing

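The number of members called after knockdown depended on the setting. In LM2 it was 1, and 0 with the line alone, 3 with no filter and 0 to 1 without 1 library. In BrM3 it was 0, and 1 with upper-quartile scaling, 1 with the GC correction, 3 with the line alone, 3 with no filter and 0 to 1 without 1 library. In BoM it was 0, and 1 with no filter. In the average it was 2, and 5 with no filter and 1 to 4 without 1 library. The 4 came without LM2 shWDR5 replicate 3 and include CXCL2, which had passed the filter through that library alone. The difference between BrM3 and LM2 had 0, and 1 with no filter (CCL2). The fit with no filter tested all 10 members and called 2.34% of 41236 genes in LM2, 3.67% in BrM3, 5.66% in BoM and 13.8% in the average. The main fit tested 7 members and called 6.29%, 10.9%, 16.2% and 35.5% of 12160 genes. For lines fitted alone, upper-quartile scaling, the GC correction and fits without 1 library, the share of all genes was not counted. Member counts in those settings thus have no background. The counts between control cells stayed within 1.5 times.

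The replicate numbers were not shown to pair the libraries of any line. Deviations of same-numbered libraries correlated by 0.57, 0.03 and 0.73 for replicates 1 to 3 of LM2 and 0.54, 0.51 and -0.17 for BrM3. For BoM the values were 0.56, 0.32 and 0.14. In each line, not every library correlated best with its own number. With the replicate block 4 members were called in LM2 (CXCL8, IL6, IL1A and IL1B), 2 in BrM3 (IL1B and CCL2), 1 in BoM (IL1B) and 4 in the average, where it called 11.9%, 19.0%, 26.4% and 47.0% of all genes. It called IL1B in all 3 lines (adjusted p = 0.00093, 0.0015 and 0.0049). Numbers run within a line, so the comparisons between lines had no block.

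Of 1422 single-gene values under alternatives, 1330 kept direction and side of the threshold, 45 gained it, 28 lost it and 19 turned sign; no called value turned sign. Leaving out 1 library gave log2 changes of -0.61 to 0.23 for CXCL2 and -0.37 to 0.15 for CXCL3 in LM2, -0.0418 to 0.553 for CXCL3, -0.28 to 0.25 for CXCL8, -0.406 to 0.0318 for IL6, -0.45 to 0.50 for IL1A and -0.0454 to 0.0853 for LIF in BoM, -0.47 to 0.97 for CCL2 in LM2 and -0.0225 to 0.196 for CXCL3 in the average. Upper-quartile scaling gave -0.0495 for LIF in BoM. Summing CXCL1, CXCL2 and CXCL3 gave -0.0664 in BrM3, -0.29 in BoM and -0.21 in the average where CXCL3 alone was positive. Causes were not tested. The values of CCL5 rest on 1 to 27 reads a library and those of CSF2 on 6 to 301.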
